A study of Mus musculus with 9 samples.

Results

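Voltage-gated calcium channels, voltage-gated sodium channels and the epithelial sodium channel were followed in 43 genes of the 22322 listed in RNA-seq data of embryoid bodies made from the mouse embryonic stem cell line R1. The members were chosen by gene symbol alone, as every row whose symbol begins with Cacna, Cacnb, Cacng, Scnn or Scn and a digit, and no measured value entered that choice. The group was nevertheless picked out with earlier results of these libraries known, in which Cacna1h and Scnn1a stood among the largest falls under the Pfkp hairpin. Those differences are given here as a description with no test.

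Each of 3 groups had 3 libraries: sh-Pfkp, with a hairpin against the platelet isoform of phosphofructokinase, sh-Lin41, with a hairpin against the stem-cell RNA-binding protein encoded by Trim71, and sh-ctrl, with a control hairpin and a genotype labelled WT. All 9 libraries came from the R1 line grown feeder-free on gelatin and then held in suspension without LIF for 6 days, so that embryoid bodies formed. The labels name 1 hairpin per gene, so the knockdown and any other action of that hairpin cannot be told apart. Whether the libraries of a group are separate cultures is not stated, and p-values here measure only how these libraries vary, which may be technical variation.

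A voltage-gated calcium channel is built around a pore-forming alpha1 subunit (Cacna1 genes), which opens when the membrane depolarises. Intracellular beta subunits (Cacnb) and extracellular alpha2delta subunits (Cacna2d) bring the pore to the surface and tune its gating. The Cacng genes encode gamma subunits of the muscle channel and the TARPs, which are better known as auxiliary subunits of AMPA receptors. Voltage-gated sodium channels carry the upstroke of the action potential through a single large pore subunit (Scn genes ending in a) with beta subunits that also act in adhesion (ending in b). The epithelial sodium channel, ENaC, is a different protein family of alpha, beta and gamma subunits (Scnn1a, Scnn1b, Scnn1g) that takes up sodium across tight epithelia and is not opened by voltage. Most members are known from neurons, muscle or kidney rather than from stem cells.

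Total counts per library lay between 15495194 and 20607683, and channel genes took 0.0154% to 0.0161% of the counts in sh-Pfkp, 0.0191% to 0.0198% in sh-Lin41 and 0.0209% to 0.0223% in sh-ctrl. Pfkp stood at 102.9 ± 1.89 CPM in sh-Pfkp against 247.1 ± 1.83 CPM in sh-ctrl, and Trim71 at 159.6 ± 4.89 CPM in sh-Lin41 against 268.8 ± 4.72 CPM in sh-ctrl (SD, n = 3). CPM are counts scaled to the TMM-adjusted library size (edgeR's CPM). All 10 pluripotency markers had at least 10 CPM in sh-ctrl, and so had 6 of 11 neuron markers. A call below means an edgeR adjusted p under 0.05 over all 13158 genes tested. Of those genes 28.3% were called higher and 28.3% lower in sh-Pfkp, and 26.9% higher and 27.3% lower in sh-Lin41. The 11 neuron markers summed to 515.6 to 530.7 CPM in sh-Pfkp, 390.6 to 397.4 CPM in sh-Lin41 and 407.2 to 412.2 CPM in sh-ctrl, with 3 called higher and 3 lower in sh-Pfkp. Most of that sum was Stmn2, with 369 CPM in sh-Pfkp, 267.9 CPM in sh-Lin41 and 257.3 CPM in sh-ctrl. The 8 cardiomyocyte markers summed to 187.9 to 190.4 CPM in sh-Pfkp, 99.73 to 108.1 CPM in sh-Lin41 and 105.3 to 114.6 CPM in sh-ctrl, and nearly all of that sum was the titin gene Ttn, with 182.1 CPM in sh-Pfkp, 99.4 CPM in sh-Lin41 and 102.7 CPM in sh-ctrl. Of the 5 tested cardiomyocyte markers 2 were called higher and 1, Tnni3, lower in sh-Pfkp, and 0 higher and 2 lower in sh-Lin41. The 6 epithelial markers, all called lower in both knockdowns, summed to 710.7 to 719.4 CPM in sh-Pfkp, 617.0 to 639.9 CPM in sh-Lin41 and 838.6 to 866.5 CPM in sh-ctrl. The 6 skeletal muscle markers never summed to more than 0.308 CPM, and Myf5, Tnnt3, the radial glia marker Fabp7 and the endoderm marker Afp had 0 counts in all 9 libraries. The 8 glia and neural progenitor markers, which include Fabp7, were not absent as a set. They summed to 49.74 to 51.84 CPM in sh-Pfkp, 44.54 to 46.45 CPM in sh-Lin41 and 35.02 to 36.82 CPM in sh-ctrl. Of the 4 tested, 2 were called higher and 0 lower in each knockdown. The 7 extraembryonic endoderm markers, which include Afp, summed to 3.948 to 5.754 CPM in sh-ctrl. The 8 mesenchymal markers summed to 296.0 to 312.2 CPM in sh-Pfkp, 277.6 to 289.9 CPM in sh-Lin41 and 235.7 to 239.8 CPM in sh-ctrl, mostly from Vim. Of the 7 tested among them 6 were called higher and 1, Pdgfrb, lower in sh-Pfkp, with a median log2 fold change of 2.23, and 3 higher and 1 lower in sh-Lin41. Col1a2, Col3a1 and Dcn, among the 6, passed the low-count filter of the test (0.553 CPM in 3 libraries) only through sh-Pfkp. Each averaged at most 0.169 CPM in either other group. Their calls in sh-Pfkp, and the median that rests on them, are therefore a description only. Col3a1, a collagen gene, had 5.22 CPM in sh-Pfkp, 0.0322 CPM in sh-Lin41 and 0.0395 CPM in sh-ctrl. Mitochondrially encoded transcripts, listed as a possible sign of RNA quality, were called higher for 12 of 13 genes in sh-Pfkp and all 13 in sh-Lin41. RNA quality itself was not tested. The part of these shifts in the results below was not tested, and in bulk RNA fewer cells of a type cannot be told apart from less RNA per cell.

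Of the 43 members 41 had at least 1 count in some library, and only Cacng1 and Scn10a, a muscle gamma subunit and a sensory-neuron sodium channel, had 0 in all 9, which allows up to 3 counts or 0.0181 CPM over the pooled libraries. Detection in that sense was broad but shallow. A further 8 members had fewer than 10 counts in total, 33 had at least 10, 22 had a mean of at least 1 CPM in some group and 7 reached 10 CPM. The 7 were Cacna1a, Cacna1h, Cacnb1, Cacnb3, Cacng7, Scn3a and Scn8a. By subfamily, a mean of at least 1 CPM was found for 3 of 4 L-type pore genes, 2 of 3 of the P/Q-, N- and R-type pore genes, 2 of 3 T-type pore genes, 2 of 4 alpha2delta genes, 2 of 4 calcium channel beta genes, 4 of 8 Cacng genes, 3 of 10 sodium channel pore genes, 3 of 4 sodium channel beta genes and 1 of 3 ENaC genes. The low-count filter of the test passed 25 members. Cacna1d, Cacnb4, Cacng5 and Scn1a of these passed only because of the group in which they were highest.

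**Figure D1:**
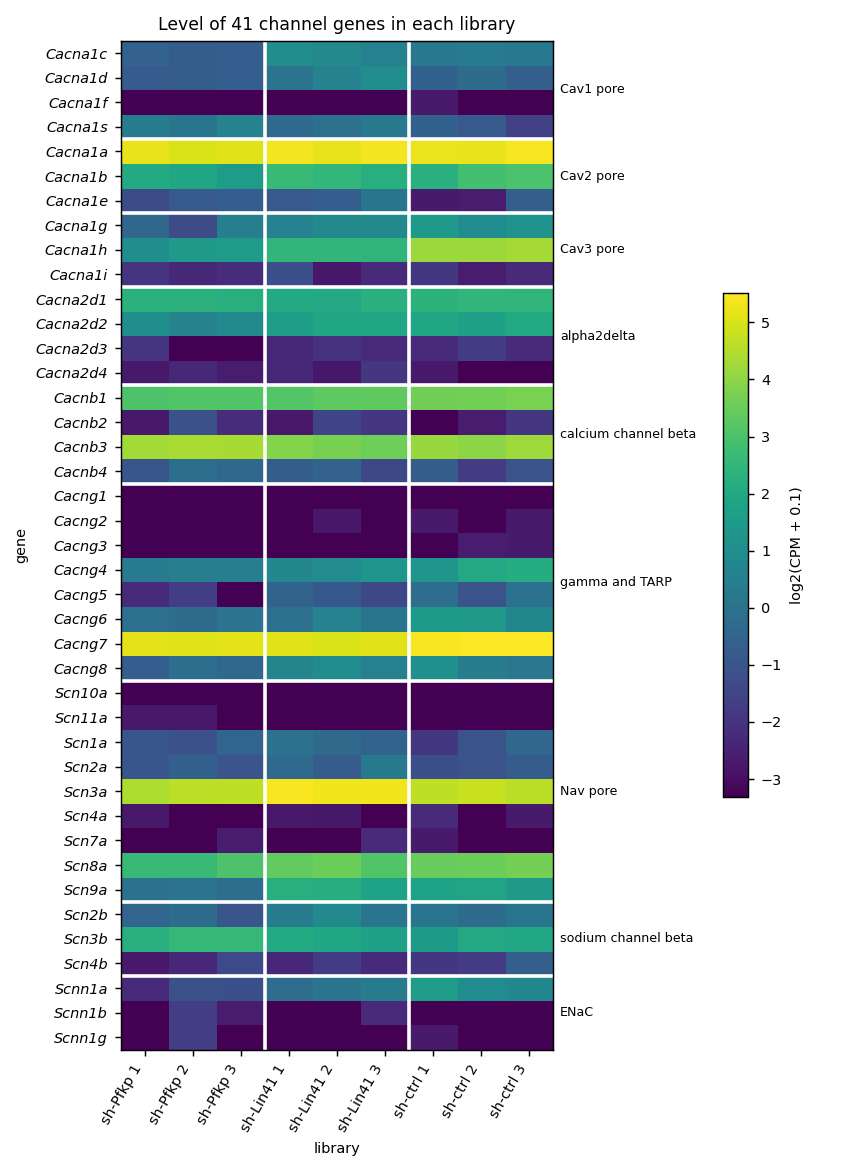
Heat map of the level of 41 of the channel genes (rows, by subfamily) in each of the 9 libraries (columns), as log2(CPM + 0.1). Bright rows mark the few abundant members, such as Cacna1a, Cacng7 and Scn3a, and the Cacna1h row is brightest in the 3 sh-ctrl libraries.

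Levels of different genes were compared by the deposited FPKM, which are scaled to transcript length. The TARP gene Cacng7 stood first with 15.5 ± 0.479 FPKM in sh-Pfkp, 15.5 ± 0.663 FPKM in sh-Lin41 and 20.5 ± 0.555 FPKM in sh-ctrl (SD, n = 3). The beta subunit gene Cacnb3 had 7.9 ± 0.283 FPKM in sh-Pfkp, 5.3 ± 0.568 FPKM in sh-Lin41 and 7.01 ± 0.63 FPKM in sh-ctrl (SD, n = 3). The P/Q-type pore gene Cacna1a had 5.31 ± 0.86 FPKM in sh-Pfkp, 6.2 ± 0.339 FPKM in sh-Lin41 and 6.21 ± 1.24 FPKM in sh-ctrl (SD, n = 3), and the embryonic sodium channel gene Scn3a had 4.86 ± 2.11 FPKM in sh-Pfkp, 8.36 ± 1.95 FPKM in sh-Lin41 and 6.14 ± 1.83 FPKM in sh-ctrl (SD, n = 3). In sh-ctrl the per-library FPKM of Cacnb3, Cacna1a and Scn3a overlapped, so their order there is not resolved. In sh-Lin41 every Scn3a value lay above every Cacnb3 value. Cacnb1 and Scn8a overlapped as well, with 4.39 to 5.07 and 3.70 to 4.64 FPKM in sh-ctrl.

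Summed over all 43 members, FPKM came to 46.8 ± 3.59 in sh-Pfkp, 53.3 ± 0.778 in sh-Lin41 and 63.1 ± 2.15 in sh-ctrl (SD, n = 3), and the 3 groups did not overlap. Cacng genes made the largest block, with 17.0 ± 0.407 summed FPKM in sh-Pfkp, 18.3 ± 0.295 in sh-Lin41 and 24.6 ± 0.0961 in sh-ctrl. T-type pore genes summed to 0.463 ± 0.163 FPKM in sh-Pfkp, 0.893 ± 0.00577 in sh-Lin41 and 2.76 ± 0.205 in sh-ctrl. Among the 10 calcium channel pore genes, Cacna1a held 77.7% ± 2.45 of the summed FPKM in sh-Pfkp, 69.7% ± 1.72 in sh-Lin41 and 58.1% ± 5.5 in sh-ctrl (SD, n = 3). Cacna1h held 5.22% ± 1.21 in sh-Pfkp, 7.54% ± 0.479 in sh-Lin41 and 23.7% ± 5.27 in sh-ctrl (SD, n = 3).

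**Figure D2:**
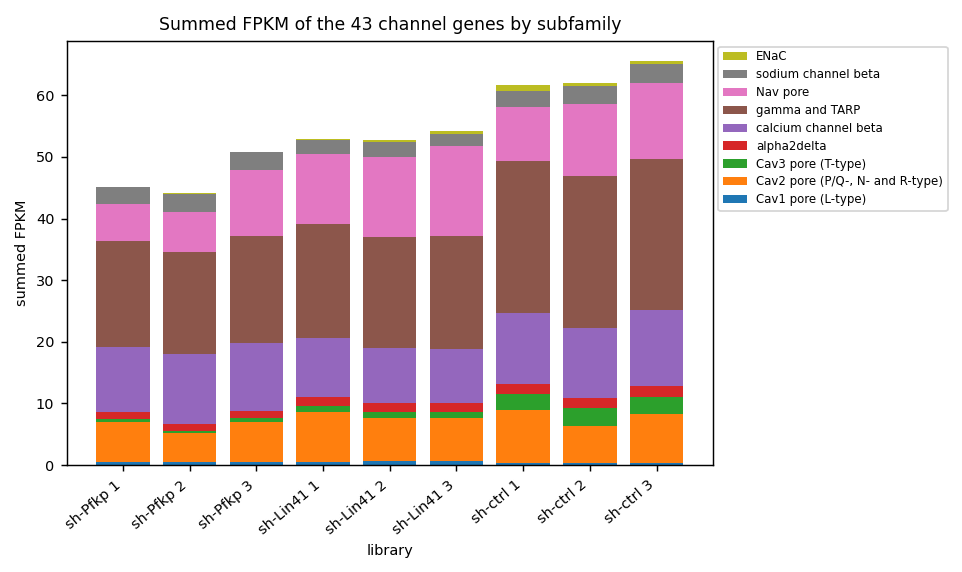
Stacked bars of FPKM summed by channel subfamily (y axis, from 0) in each of the 9 libraries (x axis). The total runs from 44.2 to 50.9 in sh-Pfkp, 52.8 to 54.2 in sh-Lin41 and 61.7 to 65.6 in sh-ctrl, and the T-type segment is thickest in sh-ctrl.

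Across the 25 tested members, more were lower than higher in sh-Pfkp relative to sh-ctrl. A member was called where edgeR's adjusted p over all 13158 genes tested was under 0.05. In sh-Pfkp 15 members were called lower and 3 higher, against 28.3% lower and 28.3% higher among all genes tested, and 10 of those lower and 1 of those higher differed at least 2-fold, against 4.26% and 2.26% of all genes. The 3 library values of one group lay apart from those of the other for 20 of 25 members, against 61% of all genes tested. The median log2 fold change was -0.58 over the 25 members and close to 0 (-0.005) over all genes. The 15 include Cacna1h and Scnn1a, known beforehand, and Cacng5, which would not have passed the filter without sh-ctrl.

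In sh-Lin41 relative to sh-ctrl 8 members were called lower and 3 higher, against 27.3% and 26.9% of all genes, and 3 lower and 2 higher members differed at least 2-fold, against 2.22% and 2.04%. Library values lay apart for 14 of 25 members, against 59% of all genes. Called at any size, 32% of members were lower, near the background, and 12% were higher, below it. The 2-fold shares, 12% lower and 8% higher, lay above the background. The 2 higher members were Cacna1d and Cacna1s, and Cacna1d would not have passed the filter without sh-Lin41. The median absolute log2 fold change was 0.463 over members and 0.204 over all genes, which were not matched for level. Set directly against sh-Lin41, sh-Pfkp was lower for 15 members and higher for 2, against 27.8% and 27.4% of all genes. At least 2-fold differences were found for 9 of the lower and 0 of the higher, against 3.02% and 1.47%, and library values lay apart for 19 of 25, against 59.8%. Both comparisons with sh-ctrl use the same 3 control libraries, and the 8 members lower in sh-Lin41 include Cacna1h and Scnn1a as well. Without the 4 members that needed their highest group to pass the filter, 21 were left. Of these 14 were lower and 3 higher in sh-Pfkp, and 8 lower and 2 higher in sh-Lin41. With no filter, 15 of 41 members with a count were lower in sh-Pfkp and 3 higher. No share of all genes is given for that fit, so these counts have no background beside them. The authors' deposited tables, filtered on FDR and fold, hold 9 lower and 1 higher member for the Pfkp hairpin, beside 580 lower and 343 higher genes in all (2.6% and 1.54% of the genes listed). For the Lin41 hairpin the authors' deposited table holds 2 lower and 1 higher member, beside 249 lower and 224 higher genes (1.12% and 1%).

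**Figure D3:**
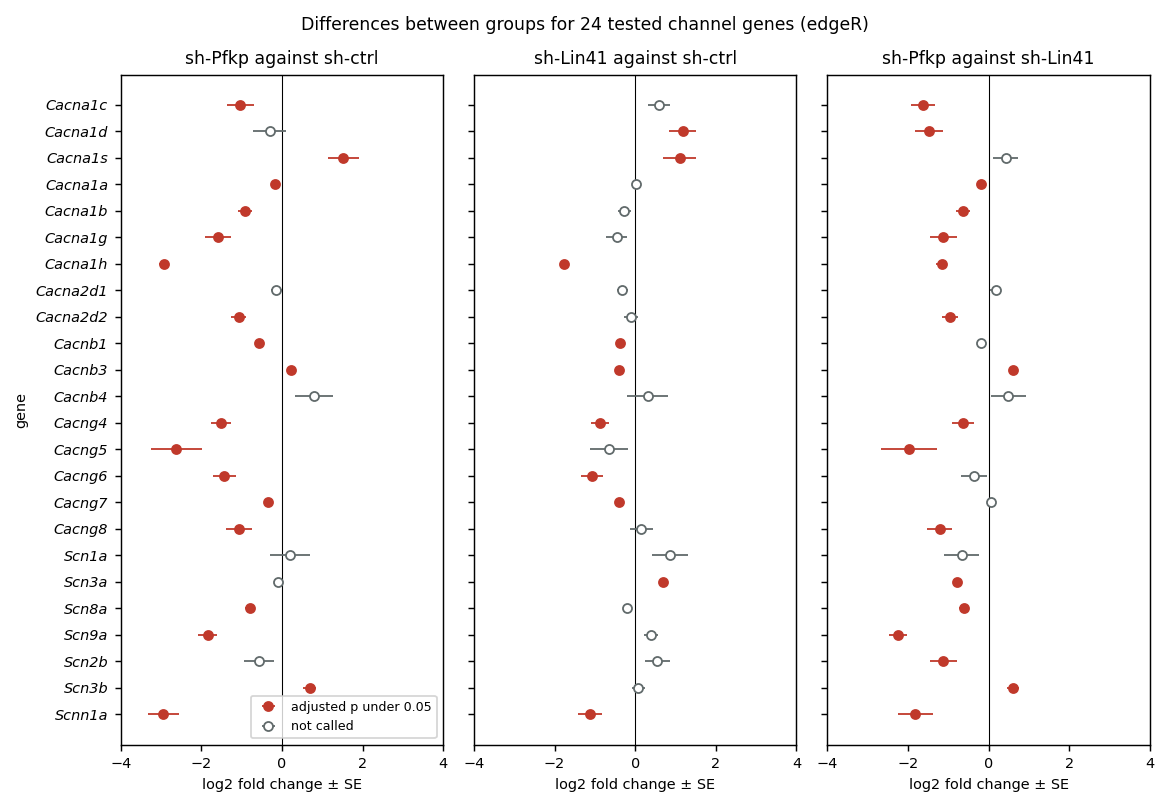
Log2 fold changes with SE (x axes) of 24 tested channel genes (rows) for sh-Pfkp against sh-ctrl, sh-Lin41 against sh-ctrl and sh-Pfkp against sh-Lin41. Filled points have an edgeR adjusted p under 0.05. In the left panel 15 filled points lie below 0 and 3 above. The 15 include Cacna1h and Scnn1a, known beforehand, and Cacng5, so their points there are a description only. Cacna1d, Cacnb4, Cacng5 and Scn1a would not have passed the low-count filter without the group where they were highest.

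Both tested T-type pore genes were lower in sh-Pfkp than in sh-ctrl. T-type channels open at weak depolarisation and carry low-threshold calcium entry. Cacna1h (ENSMUSG00000024112), the Cav3.2 pore, had 38, 50 and 48 counts in the 3 sh-Pfkp libraries, 109, 116 and 98 in sh-Lin41 and 314, 281 and 366 in sh-ctrl. These were 2.45 ± 0.408 CPM in sh-Pfkp, 5.49 ± 0.101 CPM in sh-Lin41 and 18.6 ± 1.15 CPM in sh-ctrl (SD, n = 3), and no library of one group overlapped another. Relative to sh-ctrl the log2 fold change was -2.93 (SE 0.123) in sh-Pfkp, where it is a description only. In sh-Lin41 Cacna1h fell as well (log2 -1.76, SE 0.106, adjusted p = 2.12e-15), in a test against the same 3 control libraries as the fall known beforehand. The sh-Pfkp group lay below sh-Lin41 with a log2 difference of -1.17 (SE 0.146). Cacna1g (ENSMUSG00000020866), the Cav3.1 pore, had 13, 6 and 22 counts in the 3 sh-Pfkp libraries, 28, 35 and 32 in sh-Lin41 and 46, 29 and 40 in sh-ctrl. The sh-Pfkp libraries were spread widely but stayed under all others. Cacna1g fell in sh-Pfkp (log2 -1.58, SE 0.315, adjusted p = 7.54e-05), and its value in sh-Lin41 was -0.46 (SE 0.27, adjusted p = 0.149). The direct difference between the knockdowns (log2 -1.12, SE 0.327, adjusted p = 0.00424) lost its call without sh-Pfkp replicate 2 (-0.73, adjusted p = 0.0586) and was -1.69 without sh-Pfkp replicate 3. On log2(FPKM + 1), a scale that shrinks differences of low genes, it was not called with limma-trend either (adjusted p = 0.0838). Cacna1i, the third T-type pore, had 23 counts in all and was not tested.

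The L-type pore genes were scarce and did not move as a block. L-type channels couple depolarisation to contraction, secretion and transcription. Cacna1s (ENSMUSG00000026407), the skeletal muscle pore, had 23, 19 and 24 counts in the 3 sh-Pfkp libraries, 14, 18 and 20 in sh-Lin41 and 10, 7 and 4 in sh-ctrl. Its counts were higher in every library of both knockdowns than in any control library, and it rose in sh-Pfkp (log2 1.52, SE 0.387, adjusted p = 0.0012) and in sh-Lin41 (log2 1.10, SE 0.405, adjusted p = 0.0219). The call in sh-Lin41 was lost without sh-ctrl replicate 3 (0.78, adjusted p = 0.141), and likewise with sh-Lin41 replicate 3 left out (0.94, adjusted p = 0.092) and on log2(FPKM + 1) (adjusted p = 0.23). Skeletal muscle markers stayed at or under 0.308 CPM in sum in every library.

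Cacna1c (ENSMUSG00000051331), the cardiac and smooth muscle pore, had 11, 10 and 9 counts in the 3 sh-Pfkp libraries, 39, 35 and 25 in sh-Lin41 and 19, 18 and 20 in sh-ctrl. The sh-Pfkp value was called lower (log2 -1.03, SE 0.337, adjusted p = 0.00982), while sh-Lin41 lay above sh-ctrl in all 3 libraries without a call (log2 0.60, SE 0.27, adjusted p = 0.0616). Without sh-Lin41 replicate 3 that value was called (0.72, adjusted p = 0.0443). The difference between the knockdowns was called (log2 -1.63, SE 0.306, adjusted p = 3.44e-05). Neither call on Cacna1c held on log2(FPKM + 1), with adjusted p = 0.447 for sh-Pfkp against sh-ctrl and 0.068 for sh-Pfkp against sh-Lin41. Cacna1d (ENSMUSG00000015968), a pore of pacemaking and neuroendocrine cells, had 9, 10 and 9 counts in the 3 sh-Pfkp libraries, 19, 29 and 35 in sh-Lin41 and 10, 12 and 10 in sh-ctrl. Every sh-Lin41 library lay above all others. Cacna1d passed the filter only through sh-Lin41, where it is highest, so its log2 values are given with no test: -0.31 (SE 0.417) in sh-Pfkp and 1.18 (SE 0.34) in sh-Lin41 against sh-ctrl. The retinal pore gene Cacna1f had 1 count in all.

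Of the presynaptic pore genes, Cacna1b fell in sh-Pfkp and the small difference of Cacna1a rested on single libraries. Cacna1b (ENSMUSG00000004113), the N-type pore of nerve terminals, had 78, 70 and 49 counts in the 3 sh-Pfkp libraries, 124, 117 and 83 in sh-Lin41 and 83, 114 and 145 in sh-ctrl. Scaled to depth these were 3.52 ± 0.631 CPM in sh-Pfkp, 5.48 ± 0.84 CPM in sh-Lin41 and 6.65 ± 1.67 CPM in sh-ctrl (SD, n = 3). The fall in sh-Pfkp was called (log2 -0.91, SE 0.173, adjusted p = 3.94e-05), and sh-Lin41 overlapped sh-ctrl (log2 -0.27, SE 0.159, adjusted p = 0.149; -0.47, adjusted p = 0.0118 without sh-ctrl replicate 1). Cacna1a (ENSMUSG00000034656), the P/Q-type pore, had 704, 636 and 599 counts in the 3 sh-Pfkp libraries, 807, 777 and 750 in sh-Lin41 and 671, 579 and 764 in sh-ctrl. It was called lower in sh-Pfkp (log2 -0.17, SE 0.0571, adjusted p = 0.0132) although the CPM of sh-Pfkp and sh-ctrl libraries overlapped, and the call was lost without sh-ctrl replicate 3 (-0.11, adjusted p = 0.146) or sh-Pfkp replicate 2 (-0.12, adjusted p = 0.119), as on log2(FPKM + 1) (adjusted p = 0.276). Against sh-Lin41 it was -0.19 (SE 0.0557, adjusted p = 0.00455), a call also lost without sh-Pfkp replicate 2 (-0.14, adjusted p = 0.0637) and on log2(FPKM + 1) (adjusted p = 0.249). The R-type pore gene Cacna1e had 6, 9 and 9 counts in the 3 sh-Pfkp libraries, 9, 11 and 18 in sh-Lin41 and 1, 1 and 10 in sh-ctrl, and did not pass the filter. With no filter it was called in sh-Lin41 (log2 1.47, adjusted p = 0.0259), and 1 of the controls held 10 of the 12 counts in that group.

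The auxiliary subunits of the calcium channel were divided. Among the alpha2delta genes, which encode the site of gabapentin binding, Cacna2d2 (ENSMUSG00000010066) had 38, 28 and 30 counts in the 3 sh-Pfkp libraries, 58, 75 and 65 in sh-Lin41 and 64, 51 and 73 in sh-ctrl. Cacna2d2 fell in sh-Pfkp (log2 -1.08, SE 0.196, adjusted p = 2.28e-05) with all sh-Pfkp libraries under the rest, and in sh-Lin41 it was -0.11 (SE 0.173, adjusted p = 0.601). Cacna2d1, the most abundant of that subfamily, had 93, 97 and 79 counts in the 3 sh-Pfkp libraries, 82, 82 and 86 in sh-Lin41 and 89, 86 and 98 in sh-ctrl. It was not called in any comparison, with -0.14 (SE 0.136, adjusted p = 0.406) in sh-Pfkp and -0.32 (SE 0.138, adjusted p = 0.0509) in sh-Lin41. In sh-Lin41 it lay on the threshold, being called with DESeq2 size factors (adjusted p = 0.0481), upper quartile scaling (adjusted p = 0.0493) or total counts (adjusted p = 0.0498), and without sh-Lin41 replicate 3 (-0.39, adjusted p = 0.032). Cacna2d3 and Cacna2d4 had 17 and 11 counts in all.

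Both abundant beta subunit genes were called, and in sh-Pfkp they went in opposite directions. Beta subunits carry the pore out of the endoplasmic reticulum. Cacnb1 (ENSMUSG00000020882), the beta subunit of skeletal muscle, had 155, 166 and 147 counts in the 3 sh-Pfkp libraries, 177, 204 and 183 in sh-Lin41 and 210, 192 and 243 in sh-ctrl. Its level was 8.41 ± 0.216 CPM in sh-Pfkp, 9.6 ± 0.629 CPM in sh-Lin41 and 12.5 ± 0.654 CPM in sh-ctrl (SD, n = 3). It fell in sh-Pfkp (log2 -0.58, SE 0.0982, adjusted p = 8.83e-06) and in sh-Lin41 (log2 -0.38, SE 0.0955, adjusted p = 0.00103), with every control library above both knockdowns. Between the knockdowns it was -0.19 (SE 0.1, adjusted p = 0.107), which total counts (-0.24, adjusted p = 0.0451) and log2(FPKM + 1) (adjusted p = 0.00934) did call. Cacnb3 (ENSMUSG00000003352), a beta subunit of neurons and smooth muscle, had 368, 409 and 350 counts in the 3 sh-Pfkp libraries, 292, 271 and 215 in sh-Lin41 and 307, 247 and 344 in sh-ctrl. Its level was 20.2 ± 0.808 CPM in sh-Pfkp, 13.2 ± 1.42 CPM in sh-Lin41 and 17.4 ± 1.5 CPM in sh-ctrl (SD, n = 3), so the groups lay apart in the order sh-Pfkp, sh-ctrl, sh-Lin41. It fell in sh-Lin41 (log2 -0.40, SE 0.086, adjusted p = 0.000217) and was called higher in sh-Pfkp (log2 0.22, SE 0.0813, adjusted p = 0.0241). The rise is small and was not called by DESeq2 (adjusted p = 0.0518), with upper quartile scaling (0.18, adjusted p = 0.0655), with total counts (0.17, adjusted p = 0.0792), without sh-ctrl replicate 2 (0.16, adjusted p = 0.132) without sh-Pfkp replicate 2 (0.19, adjusted p = 0.082) or on log2(FPKM + 1) (adjusted p = 0.14). The direct difference was larger (log2 0.61, SE 0.0831, adjusted p = 1.73e-07). Cacnb4 had 82 counts in all, with no call, and Cacnb2 had 23.

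The promoters of these abundant paralogs, both lower in sh-Lin41 and called in opposite directions in sh-Pfkp with the limits just given for Cacnb3, are shown as RefSeq gives them on GRCm38.p6, from 250 bases before to 50 after the most upstream start site listed, with CG dinucleotides in capitals. Cacnb1 lies at chr11:98022578-98022877, minus strand and holds 34 of them, a number reached by 7.49% of the 27025 genes with a listed promoter. Cacnb3 lies at chr15:98632078-98632377, plus strand and holds 7, reached by 52.3%.
Cacnb1: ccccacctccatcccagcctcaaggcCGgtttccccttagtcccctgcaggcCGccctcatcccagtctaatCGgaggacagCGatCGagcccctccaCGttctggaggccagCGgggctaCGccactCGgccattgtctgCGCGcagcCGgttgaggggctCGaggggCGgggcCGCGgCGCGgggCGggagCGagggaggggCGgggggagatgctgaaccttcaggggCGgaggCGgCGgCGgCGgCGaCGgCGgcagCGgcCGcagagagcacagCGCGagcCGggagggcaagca
Cacnb3: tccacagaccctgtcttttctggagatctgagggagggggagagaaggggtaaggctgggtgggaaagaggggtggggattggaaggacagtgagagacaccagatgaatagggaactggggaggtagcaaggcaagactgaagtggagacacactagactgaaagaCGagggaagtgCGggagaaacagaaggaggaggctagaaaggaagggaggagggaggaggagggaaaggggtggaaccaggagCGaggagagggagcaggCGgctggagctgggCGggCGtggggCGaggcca

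Cacng4, Cacng6, Cacng7 and Cacng8 were called lower in sh-Pfkp. Cacng7 (ENSMUSG00000069806), an atypical TARP and the most abundant member by FPKM, had 678, 661 and 612 counts in the 3 sh-Pfkp libraries, 693, 670 and 626 in sh-Lin41 and 759, 706 and 837 in sh-ctrl. It stood at 35.1 ± 1.01 CPM in sh-Pfkp, 33.9 ± 1.35 CPM in sh-Lin41 and 44.7 ± 1.17 CPM in sh-ctrl (SD, n = 3), a fall in sh-Pfkp (log2 -0.35, SE 0.0497, adjusted p = 3.75e-07) and in sh-Lin41 (log2 -0.40, SE 0.0495, adjusted p = 2.98e-08) with no call between the knockdowns (log2 0.05, SE 0.0509, adjusted p = 0.414). Cacng6 (ENSMUSG00000078815), a relative of the muscle gamma subunit, had 16, 15 and 16 counts in the 3 sh-Pfkp libraries, 17, 29 and 18 in sh-Lin41 and 48, 40 and 29 in sh-ctrl. Cacng6 fell in sh-Pfkp (log2 -1.43, SE 0.288, adjusted p = 9.1e-05) and in sh-Lin41 (log2 -1.07, SE 0.272, adjusted p = 0.00134), and the knockdowns overlapped each other but not sh-ctrl. Cacng8 (ENSMUSG00000053395), a TARP of hippocampal synapses, had 10, 16 and 12 counts in the 3 sh-Pfkp libraries, 30, 39 and 25 in sh-Lin41 and 36, 19 and 19 in sh-ctrl. It fell in sh-Pfkp (log2 -1.07, SE 0.331, adjusted p = 0.00676), a call that was lost without sh-ctrl replicate 1 (-0.71, adjusted p = 0.11) or on log2(FPKM + 1) (adjusted p = 0.122), and sh-Lin41 overlapped sh-ctrl (0.15, SE 0.281, adjusted p = 0.679).

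Cacng4 (ENSMUSG00000020723), a TARP of the developing brain, had 22, 25 and 22 counts in the 3 sh-Pfkp libraries, 32, 38 and 43 in sh-Lin41 and 41, 62 and 80 in sh-ctrl. It fell in sh-Pfkp (log2 -1.52, SE 0.241, adjusted p = 2.85e-06) and in sh-Lin41 (log2 -0.88, SE 0.22, adjusted p = 0.00106), though control and sh-Lin41 libraries overlapped. The direct difference (log2 -0.63, SE 0.262, adjusted p = 0.0405) was not called by DESeq2 (adjusted p = 0.0789) limma-voom (adjusted p = 0.0801) or on log2(FPKM + 1) (adjusted p = 0.136), and it was lost in 6 of 9 fits that each left out a library (adjusted p between 0.0506 and 0.188 in those 6: sh-ctrl replicate 2, any of the sh-Pfkp libraries, sh-Lin41 replicates 2 and 3). Cacng5 (ENSMUSG00000040373) had 2, 4 and 0 counts in the 3 sh-Pfkp libraries, 12, 9 and 5 in sh-Lin41 and 14, 6 and 16 in sh-ctrl. The sh-Pfkp libraries held the fewest counts, and sh-Lin41 and sh-ctrl overlapped. Cacng5 would not have passed the filter without sh-ctrl, where it is highest. Its log2 value of -2.62 (SE 0.638) in sh-Pfkp is therefore given with no test. Cacng2, the stargazin gene, and Cacng3 had 3 and 2 counts in all.

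Cacng7, Cacng8 and Cacng6 are direct neighbours in the RefSeq gene order of GRCm38.p6, with no other protein-coding gene between them, and all were called lower in sh-Pfkp. Their promoters are shown for that reason, again with CG in capitals. That of Cacng7 lies at chr7:3332575-3332874, plus strand and holds 15 CG dinucleotides, that of Cacng8 at chr7:3393792-3394091, plus strand holds 2, and that of Cacng6 at chr7:3424412-3424711, plus strand holds 8. As many or more are held by 35.2%, 85.4% and 49.1% of listed promoters.
Cacng7: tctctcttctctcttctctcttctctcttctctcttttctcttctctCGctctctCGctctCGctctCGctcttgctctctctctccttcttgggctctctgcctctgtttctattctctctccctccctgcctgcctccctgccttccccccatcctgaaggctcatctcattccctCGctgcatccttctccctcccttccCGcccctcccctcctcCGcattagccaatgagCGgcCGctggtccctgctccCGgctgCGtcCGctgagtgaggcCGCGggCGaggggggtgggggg
Cacng8: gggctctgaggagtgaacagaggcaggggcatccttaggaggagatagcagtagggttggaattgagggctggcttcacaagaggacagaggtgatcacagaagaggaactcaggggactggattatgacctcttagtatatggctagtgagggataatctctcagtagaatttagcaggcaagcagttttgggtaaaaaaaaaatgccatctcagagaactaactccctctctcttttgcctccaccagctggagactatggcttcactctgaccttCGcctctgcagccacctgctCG
Cacng6: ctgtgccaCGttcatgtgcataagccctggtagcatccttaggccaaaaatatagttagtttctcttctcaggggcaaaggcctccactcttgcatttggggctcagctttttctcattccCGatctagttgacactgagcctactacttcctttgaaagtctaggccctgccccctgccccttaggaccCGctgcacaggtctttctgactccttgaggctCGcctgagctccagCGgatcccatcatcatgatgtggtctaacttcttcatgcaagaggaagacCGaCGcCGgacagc

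Among the sodium channel pore genes Scn3a rose in sh-Lin41, and Scn9a and Scn8a fell in sh-Pfkp. Scn3a (ENSMUSG00000057182), the Nav1.3 pore of embryonic neurons, had 407, 478 and 434 counts in the 3 sh-Pfkp libraries, 853, 827 and 727 in sh-Lin41 and 439, 428 and 442 in sh-ctrl. Its level was 23.7 ± 2.03 CPM in sh-Pfkp, 40.9 ± 1.66 CPM in sh-Lin41 and 25.5 ± 1.66 CPM in sh-ctrl (SD, n = 3). It rose in sh-Lin41 (log2 0.68, SE 0.0609, adjusted p = 3.16e-11), where every library lay above all others, and was not called in sh-Pfkp (log2 -0.10, SE 0.0671, adjusted p = 0.191). Scn9a (ENSMUSG00000075316), the Nav1.7 pore of nociceptors, had 17, 18 and 14 counts in the 3 sh-Pfkp libraries, 92, 92 and 62 in sh-Lin41 and 60, 55 and 48 in sh-ctrl. It stood at 0.877 ± 0.0563 CPM in sh-Pfkp, 4.16 ± 0.65 CPM in sh-Lin41 and 3.19 ± 0.496 CPM in sh-ctrl (SD, n = 3). All sh-Pfkp libraries lay under the rest, with a log2 fold change of -1.84 (SE 0.235, adjusted p = 6.01e-08). In sh-Lin41 Scn9a was 0.39 (SE 0.177, adjusted p = 0.0604) and overlapped sh-ctrl, though it was called without sh-Lin41 replicate 3 (0.51, adjusted p = 0.0217). The direct difference was -2.24 (SE 0.221, adjusted p = 3.04e-10).

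Scn8a (ENSMUSG00000023033), the Nav1.6 pore of axon initial segments, had 116, 118 and 139 counts in the 3 sh-Pfkp libraries, 205, 239 and 157 in sh-Lin41 and 191, 180 and 230 in sh-ctrl. Scn8a fell in sh-Pfkp (log2 -0.80, SE 0.121, adjusted p = 1.44e-06) and was -0.20 (SE 0.113, adjusted p = 0.146) in sh-Lin41. The sh-Pfkp libraries lay apart from both other groups, which overlapped. Scn1a, the pore of inhibitory interneurons, had 91 counts in all and no call. Scn2a, with 91 counts as well, did not pass the filter. The skeletal muscle pore gene Scn4a had 6 counts, and Scn7a, Scn11a and Scn10a had 4, 2 and 0. Scn3a, Scn2a, Scn1a, Scn9a and Scn7a lie near one another in the RefSeq gene order of GRCm38.p6, yet Scn3a and Scn9a had the different patterns given above.

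Of the sodium channel beta genes Scn3b rose in sh-Pfkp. Scn3b (ENSMUSG00000049281) had 89, 117 and 102 counts in the 3 sh-Pfkp libraries, 82, 73 and 59 in sh-Lin41 and 47, 61 and 69 in sh-ctrl. It rose in sh-Pfkp (log2 0.68, SE 0.162, adjusted p = 0.000593), whose libraries all lay above the rest, and was 0.08 (SE 0.172, adjusted p = 0.724) in sh-Lin41. Scn2b (ENSMUSG00000070304) had 12, 15 and 7 counts in the 3 sh-Pfkp libraries, 24, 37 and 18 in sh-Lin41 and 17, 12 and 18 in sh-ctrl. The sh-Pfkp and sh-ctrl libraries overlapped. Scn2b was called only between the knockdowns (log2 -1.13, SE 0.336, adjusted p = 0.00515), and not without sh-Lin41 replicate 2 (-0.84, adjusted p = 0.0687). Scn4b had 32 counts in all.

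Of the ENaC genes only the alpha subunit was tested. Scnn1a (ENSMUSG00000030340), which is needed for a working channel, had 2, 7 and 6 counts in the 3 sh-Pfkp libraries, 16, 20 and 21 in sh-Lin41 and 50, 29 and 30 in sh-ctrl. It stood at 0.271 ± 0.144 CPM in sh-Pfkp, 0.975 ± 0.177 CPM in sh-Lin41 and 2.12 ± 0.653 CPM in sh-ctrl (SD, n = 3), with the 3 groups apart. In sh-Pfkp the log2 fold change was -2.94 (SE 0.385), given as a description. In sh-Lin41 Scnn1a fell (log2 -1.12, SE 0.295, adjusted p = 0.00183), in a test against the same 3 control libraries as the fall known beforehand. The sh-Pfkp group lay below sh-Lin41 with a log2 difference of -1.82 (SE 0.436). Prss8, which encodes the channel-activating protease prostasin, and Nedd4l, a ubiquitin ligase that removes ENaC from the membrane, were called lower in both knockdowns, and are named here after their values were seen. Another regulator of the channel in that list, the kinase gene Sgk1, was not called in sh-Pfkp (log2 -0.01, SE 0.0251, adjusted p = 0.689) and was lower in sh-Lin41 (log2 -0.10, SE 0.0251, adjusted p = 0.00146). Prss8 was at -0.78 (SE 0.145) in sh-Pfkp and -1.42 (SE 0.155) in sh-Lin41, and Nedd4l at -0.46 (SE 0.049) in sh-Pfkp and -0.33 (SE 0.0479) in sh-Lin41, all as called log2 fold changes. Scnn1b and Scnn1g had 7 and 5 counts in all, of which sh-Pfkp replicate 2 held 4 each. The epithelial markers that fell beside Scnn1a are given above, and their part in this was not tested.

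**Figure D4:**
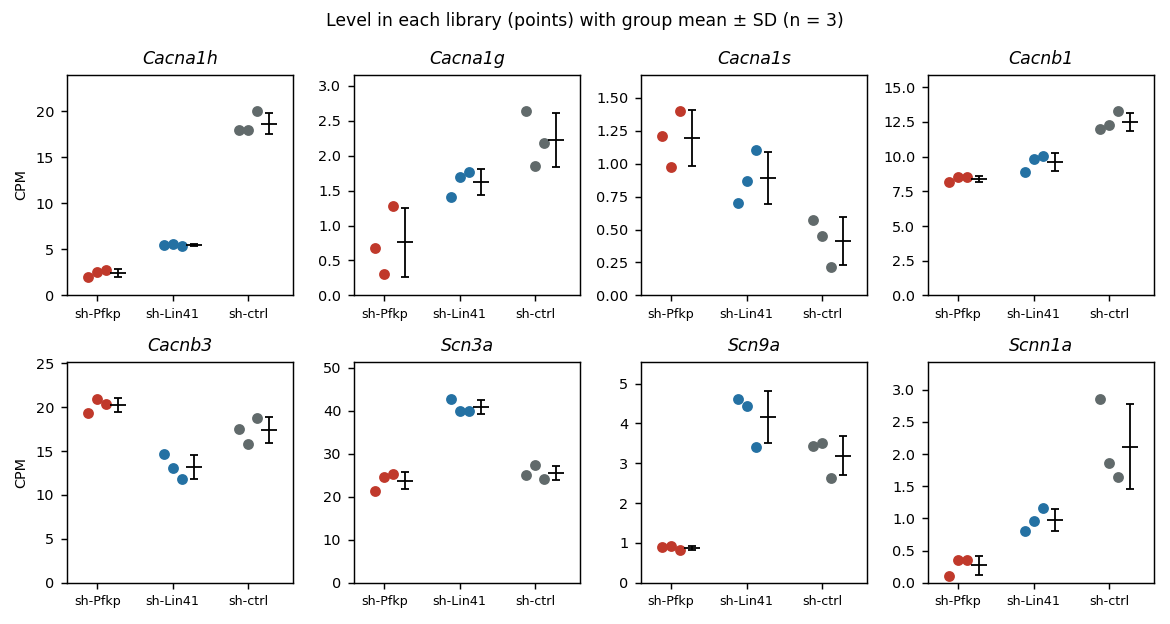
CPM of 8 channel genes in each library (points) with the group mean and SD (bars, n = 3), for sh-Pfkp, sh-Lin41 and sh-ctrl, y axes from 0. Cacna1h and Scnn1a are lowest in sh-Pfkp and highest in sh-ctrl, Scn9a is lowest in sh-Pfkp, and Scn3a is highest in sh-Lin41.

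RefSeq promoters were listed for 32 of the 43 members, and those with none in the table include Cacna1a, Cacna1g, Cacna1h, Cacna2d4, Cacng1, Cacng4, Scn3a, Scn3b and Scnn1a. The 17 tested among the 32 had a median of 9 CG dinucleotides (2 to 43) in 300 bases, the 15 not tested had a median of 11 (3 to 41), and all 27025 genes with a listed promoter had a median of 7 (0 to 65). Cacna2d3 and Cacnb2, with 17 and 23 counts over 9 libraries, had 41 and 35, while Cacnb3, with 2803 counts, had 7. These counts describe the letters of the window and nothing about its use.

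The deposited FPKM did not track the counts equally for all channel genes. Dividing a gene's count by its FPKM and by the library's total count gives, in kb after scaling, the transcript length that the FPKM imply. For Cacng7 this was 2.21 kb in all 9 libraries. For Scn3a it was 5.92, 6.40 and 3.39 kb in sh-Pfkp, 6.43, 5.13 and 3.85 kb in sh-Lin41 and 6.30, 3.80 and 3.42 kb in sh-ctrl. The Scn3a FPKM accordingly ran from 3.54 to 7.29 in sh-Pfkp, from 6.74 to 10.5 in sh-Lin41 and from 4.03 to 7.26 in sh-ctrl, and the groups overlapped, whereas the counts of sh-Lin41 lay apart. On log2(FPKM + 1) with limma-trend Scn3a was not called in sh-Lin41 (0.41, adjusted p = 0.23). The authors' deposited table, whose ratio rests on mean FPKM, gives Scn3a a log2 ratio of 0.44 in sh-Lin41 with an FDR of 5.02e-16. The widest range was that of Cacna1b, whose highest implied length was 2.69 times its lowest. For Cacnb3 and Cacna2d2 it was 1.01 and 1.03 times. Which transcripts the libraries held was not tested.

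Related genes outside the 43 members were read against the shares of all genes called, 28.3% higher and 28.3% lower in sh-Pfkp and 26.9% higher and 27.3% lower in sh-Lin41. Here rose and fell are calls at an edgeR adjusted p under 0.05, given with log2 fold changes. In the list of calcium release and store-operated entry 4 of 14 tested genes rose and 6 fell in sh-Pfkp, with a median log2 fold change of -0.16, and 6 rose and 3 fell in sh-Lin41 (median 0.05). Ryr2, the cardiac ryanodine receptor, rose in sh-Pfkp (1.00, SE 0.0989) and the inositol trisphosphate receptor genes Itpr3 (-0.33, SE 0.0326) and Itpr1 (-0.34, SE 0.0372) fell. In sh-Lin41 Itpr2 (4.16, SE 0.372) and the store sensor gene Stim2 (0.28, SE 0.0595) rose. Ryr2 rose in sh-Lin41 too (0.39, SE 0.104) and Itpr1 fell there (-0.099, SE 0.036). Itpr2 (2.01, SE 0.5) and Stim2 (0.18, SE 0.0608) also rose in sh-Pfkp. Itpr2 had 0.643 ± 0.173 CPM in sh-Pfkp, 2.9 ± 0.135 CPM in sh-Lin41 and 0.16 ± 0.0832 CPM in sh-ctrl (SD, n = 3). Its sh-ctrl mean lies under the 0.553 CPM that the low-count filter asks for. Whether Itpr2 or other genes of these pathway lists passed the filter only through their highest group was not tested. Of 9 tested calcium pump and exchanger genes 3 rose and 3 fell in sh-Pfkp (median -0.08), and 3 rose and 0 fell in sh-Lin41 (median 0.15). The endoplasmic reticulum pump gene Atp2a3 fell in sh-Pfkp (-0.81, SE 0.0866) and rose in sh-Lin41 (0.92, SE 0.0704), with a direct difference of -1.74 (SE 0.0768, adjusted p = 1.18e-18). Atp2a2 rose in sh-Pfkp (0.19, SE 0.0193) and in sh-Lin41 (0.18, SE 0.0192), Atp2c1 in sh-Pfkp (0.24, SE 0.0427) and the plasma membrane pump gene Atp2b1 in sh-Lin41 (0.44, SE 0.0334).

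Of 8 tested genes of sodium pumps, exchangers and other sodium channels 2 rose and 4 fell in sh-Pfkp (median log2 fold change -0.09), and 1 rose and 4 fell in sh-Lin41 (median -0.14). The acid-sensing channel gene Asic1 fell in sh-Pfkp (-0.64, SE 0.128). The pump beta gene Atp1b2 rose in sh-Lin41 (0.48, SE 0.0778) and fell in sh-Pfkp (-0.35, SE 0.0855).

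Of 17 tested channel partners and regulators 2 rose and 11 fell in sh-Pfkp (median log2 fold change -0.44), and 2 rose and 10 fell in sh-Lin41 (median -0.10). Stac2, an adaptor of L-type channels, fell in sh-Pfkp (-1.28, SE 0.0789) and in sh-Lin41 (-0.79, SE 0.0739), and the scaffold gene Ahnak rose in sh-Pfkp (0.60, SE 0.0317). Ahnak rose in sh-Lin41 as well (0.32, SE 0.032). The calmodulin gene Calm3 fell in sh-Lin41 (-0.26, SE 0.0266) and in sh-Pfkp (-0.22, SE 0.0267). The kinase gene Camk2b rose in sh-Lin41 (0.75, SE 0.0694) and fell in sh-Pfkp (-0.44, SE 0.08). Of all tested genes 28.3% rose and 28.3% fell in sh-Pfkp, and 26.9% rose and 27.3% fell in sh-Lin41. Medians over all tested genes were -0.005 in sh-Pfkp and 0.004 in sh-Lin41.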

How the data were processed

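The authors deposited a whole-number read count for every gene and library, and an FPKM beside it, per the file headers. For each comparison they also deposited a log2 ratio of mean FPKM and an FDR, which is an adjusted p-value. RSEM, HISAT2, StringTie 1.3.1, Bowtie2 2.2.8 and fastp 0.18.0 are listed in the submitters' processing notes, so counts may be rounded estimates. Build, annotation, strand setting and the test behind the FDR: not given in the sources used here.

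All 9 libraries entered 1 edgeR 4.0.16 fit in R 4.3.3 (filterByExpr by group, which asks for about 10 counts in 3 libraries, TMM, quasi-likelihood F-test, 6 residual degrees of freedom, Benjamini-Hochberg over 13158 genes, threshold 0.05). SE was taken as log2 fold change over root F. The steps were tested on simulated data. Alternatives used DESeq2 1.42.0 and limma 3.58.1, among others. Counts of 0 allow up to 3 counts, or 0.145 to 0.192 CPM per library; such limits cover counting error only. Full values are given for members called in any comparison and the most abundant member of each subfamily. Pathway lists name up to 3 called genes with the smallest adjusted p per knockdown, and give any call of these genes in the other knockdown. Prss8, Sgk1, and Nedd4l in sh-Lin41, were added after their values were seen. Values of some single genes are not reported here, though counts over members include them. Members and lists were chosen with earlier results of these data known.

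Replicate pairs had a median chi-square of 0.661 to 0.763 over genes with at least 50 counts, against 0.455 from counting noise, and were kept apart. Deviations from group means correlated across genes between same-numbered sh-Pfkp and sh-ctrl libraries (r of 0.105, 0.325 and 0.279). Different-numbered libraries of these groups had r between -0.265 and -0.00174. Because each group's mean was taken out, a positive same-numbered r draws the different-numbered r of that library below 0. The same-numbered and different-numbered values are therefore not independent. Elsewhere different numbers reached 0.283 (sh-Pfkp 2 with sh-Lin41 3) and 0.224 (sh-Lin41 3 with sh-ctrl 2). The main fit used no pairing, and a replicate block entered only as an alternative. The labels do not say what the numbers mark. For sh-Lin41 no same-numbered r exceeded 0.0714.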

Additional observations from a re-analysis of the deposited data

How the results depend on the processing

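A fit with a replicate block called 18, 11 and 17 members for sh-Pfkp against sh-ctrl, sh-Lin41 against sh-ctrl and sh-Pfkp against sh-Lin41, the same numbers as without the block, and no call on a named member changed. With a 2-fold minimum the counts were 11, 5 and 9. Shares of all genes called are given above for the main fit and for this minimum. Counts from the other fits in this section have no such share beside them, so they describe the members alone. Leaving out the 4 members that needed their highest group to pass the filter gave 17, 10 and 15 of 21. This alternative was chosen after seeing the data. Leaving out each library in turn gave 16 to 18, 11 to 13 and 14 to 17. Other tools, scalings and filters stayed within 1.5 times of the main counts; on log2(FPKM + 1) sh-Lin41 had 1 higher and 8 lower. Detection, at 41 members with any count, was 33 with 10 counts over all libraries or with a count in all 3 libraries of a group, 24 at 0.1 FPKM, 22 at 1 CPM and 13 at 1 FPKM. Among called values of named members, 833 recomputed values kept direction and call, 35 lost the call and 0 reversed. Uncalled values changed sign for Cacna1d in sh-Pfkp on log2(FPKM + 1) (0.0396), and in sh-Lin41, where leaving out single libraries gave log2 fold changes of -0.0774 to 0.166 for Scn3b, -0.0147 to 0.0748 for Cacna1a and -0.0511 to 0.504 for Cacng8. The cause was not tested. On log2(FPKM + 1) differences of low genes shrink by construction, and members under about 10 counts per library were not tested under the main filter.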
